A study of Homo sapiens with 10 samples.

Results

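Tetraspanins are small membrane proteins that cross the lipid bilayer several times and expose a large outer loop. They hold integrins, immunoglobulin superfamily proteins and proteases together in membrane microdomains, and several of them sort cargo in late endosomes and into extracellular vesicles. CD9, the antigen of the antibody TG30, is used as a surface marker of human pluripotent stem cells, and its protein was 1 of the antigens by which the sorted cells of this study were chosen. The transcripts of 10 tetraspanin genes were examined here, namely CD9, CD81, CD63, CD151, CD82, TSPAN3, TSPAN6, TSPAN7, TSPAN14 and TSPAN18. Each was found by the Ensembl identifier that maps to its symbol among the 55841 genes of the count table, and all 10 were among the 23552 genes that passed the filter on low counts. The sort used protein on the cell surface, so no RNA value chose the cells, and the genes were chosen as members of a family, with earlier results of these data known.

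RNA was sequenced from the human embryonic stem cell line HES9, as the labels name it, grown in mTeSR1 medium on Matrigel. The unsorted culture gave 5 libraries, called general here, and 5 came from cells sorted for the highest GCTM-2, CD9 and EPCAM together, called HHH. Batch 1 held 2 general and 2 HHH libraries and batch 2 held 3 of each, so that every comparison could be made within a batch. No library of either group carries a label of drug treatment, genotype or clone, and the general libraries contain whatever share of HHH cells the culture held. The labels do not say that replicates were separate cultures, so p-values measure the spread between these libraries, which may be technical. In bulk RNA, fewer cells of a type and less RNA per cell cannot be told apart.

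The libraries held 47242595 to 78503395 counts, so that 1 count was worth 0.0153 to 0.0229 counts per 1000000 (CPM) after scaling by the trimmed mean of M values (TMM). Of the variance between libraries, 58.3% lay on the first principal component, which followed batch (94.1% of its spread), and 11.7% on the second, which followed the sort (91.2%). Pluripotent markers were high in all libraries, with a summed level of 5559 to 7622 CPM over 10 genes. Markers of neural progenitors summed to 6.60 to 18.2 CPM in general and 1.57 to 1.94 CPM in HHH libraries over 8 genes, with EMX2 at 0 in all HHH libraries. Fibroblast markers summed to 116 to 139 CPM in general and 79.4 to 119 CPM in HHH libraries over 6 genes, with DCN at 0 in all general libraries. Only 2 of these 6 had a mean over 1 CPM in general and in HHH libraries. COL3A1, DCN and LUM did not pass the filter, so the sum does not stand for the whole list. By edgeR over both batches, NANOG (0.44 on the log2 scale) was higher in HHH among the 10 pluripotent markers and SOX2 (-0.26) and PODXL (-0.395) were lower. SOX2 was not called with replicate number as a block or within either batch. Lower too were SOX1, LHX5, LIX1 and DLK1 of the 6 neural markers tested, COL1A1 of the 3 fibroblast markers tested, and KRT7, the 1 trophoblast marker tested. Of all genes, 1.94% were higher and 3.89% lower. Of 8 mesendoderm markers only MIXL1 was tested (0.33), and it was not called. The part that these cells or the batch play in the values below was not tested.

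All 10 genes are protein coding. In GENCODE 44 coordinates of GRCh38, CD151 (832887 to 839831), CD81 (2376177 to 2397802), CD82 (44564427 to 44620358) and TSPAN18 (44726465 to 44932423) lie on the plus strand of chromosome 11. CD9 (6199715 to 6238271, plus strand) and CD63 (55725323 to 55729707, minus strand) lie on chromosome 12. TSPAN14 lies on chromosome 10 (80454265 to 80533124, plus strand) and TSPAN3 on chromosome 15 (77041404 to 77083984, minus strand). TSPAN6 (100627108 to 100639991, minus strand) and TSPAN7 (38561542 to 38688920, plus strand) lie on chromosome X. Overlap was sought with other genes of the count table only. Exons of CD9 and TSPAN6 overlapped none of these, whereas 23% of the exonic bases of TSPAN7 were shared with a locus on the same strand, so its counts are uncertain. For CD82, CD151 and CD63 the shared bases were 6.93%, 6.60% and 4.95%, each with a gene of the opposite strand, and for the other members they were below 4%.

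RefSeq promoter windows, taken as the 250 bases before the start of transcription, were matched for CD9, CD63, CD82, TSPAN6 and TSPAN14. Where RefSeq listed several starts, the one at the start of the canonical GENCODE transcript was used. The windows of CD9, CD82 and TSPAN14 are printed because these genes came nearest to, or passed, the test between HHH and general libraries. They read 5′ to 3′ on the plus strand of GRCh38.p14, at chr12:6200150-6200399 for CD9, chr11:44565413-44565662 for CD82 and chr10:80454060-80454309 for TSPAN14, with capitals for the GC box, GGGCGG, or its reverse complement CCGCCC.
CD9: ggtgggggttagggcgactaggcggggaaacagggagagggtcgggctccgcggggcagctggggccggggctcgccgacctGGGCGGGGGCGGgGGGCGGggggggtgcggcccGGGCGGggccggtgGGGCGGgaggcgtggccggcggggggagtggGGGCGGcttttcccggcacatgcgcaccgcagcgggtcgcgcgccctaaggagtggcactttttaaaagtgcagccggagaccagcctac
CD82: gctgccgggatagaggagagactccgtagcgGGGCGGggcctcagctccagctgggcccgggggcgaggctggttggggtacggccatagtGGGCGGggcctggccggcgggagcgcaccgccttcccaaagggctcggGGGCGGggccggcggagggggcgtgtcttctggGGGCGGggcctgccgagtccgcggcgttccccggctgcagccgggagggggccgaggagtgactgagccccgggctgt
TSPAN14: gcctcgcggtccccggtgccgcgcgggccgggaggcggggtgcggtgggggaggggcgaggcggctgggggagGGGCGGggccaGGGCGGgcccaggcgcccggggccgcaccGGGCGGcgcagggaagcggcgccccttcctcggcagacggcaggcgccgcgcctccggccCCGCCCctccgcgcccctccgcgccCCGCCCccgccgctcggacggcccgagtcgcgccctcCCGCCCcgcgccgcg
CD9 held 6 GC boxes, as did TSPAN14, whereas CD82 held 4, CD63 held 3 and TSPAN6 held 1. A GC box stood in 43.9% of the 27305 promoters of this length. A TATA box, TATAAA or its reverse complement TTTATA, was in none of the 5 windows and in 11.1% of all promoters. The GC content was 76.8% for CD9, 77.2% for CD82, 79.2% for CD63 and 88.0% for TSPAN14, above the median promoter at 58.4%, whereas TSPAN6 had 45.2%.

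Tetraspanins of widely different abundance were transcribed in these cells. Per length, as CPM divided by the kilobases of exon (RPKM), the order of the 10 genes was led by CD63, a protein of lysosomes and exosomes, with a mean of 78.0 RPKM over all libraries (range 54.0 to 104.6). TSPAN6, linked to endosomal sorting, followed at 30.3 RPKM (range 20.5 to 41.9). Next came TSPAN3 at 15.8 RPKM, CD81 at 13.9, CD9 at 13.3 and CD151 at 10.7 RPKM. These 4 could not be ranked beyond their spread, since the ranges over libraries of each pair of neighbours overlapped, with TSPAN3 above CD81 in 9 of 10 libraries, CD81 above CD9 in 7 and CD9 above CD151 in 7. TSPAN14 came next at 2.60 RPKM, with CD151 higher by 4.11 times. That ratio depends on the length used, since on the deposited log2 RPKM scale CD151 was at 3.40 (rank 10 of the family) and TSPAN14 at 2.62 (rank 11). TSPAN7 at 1.55 and TSPAN18 at 1.31 RPKM were not separated by their ranges. CD82 had the lowest mean, at 0.542 RPKM (range 0.267 to 0.959). Its range overlapped that of TSPAN18, which was above it in 9 of 10 libraries.

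**Figure D1:**
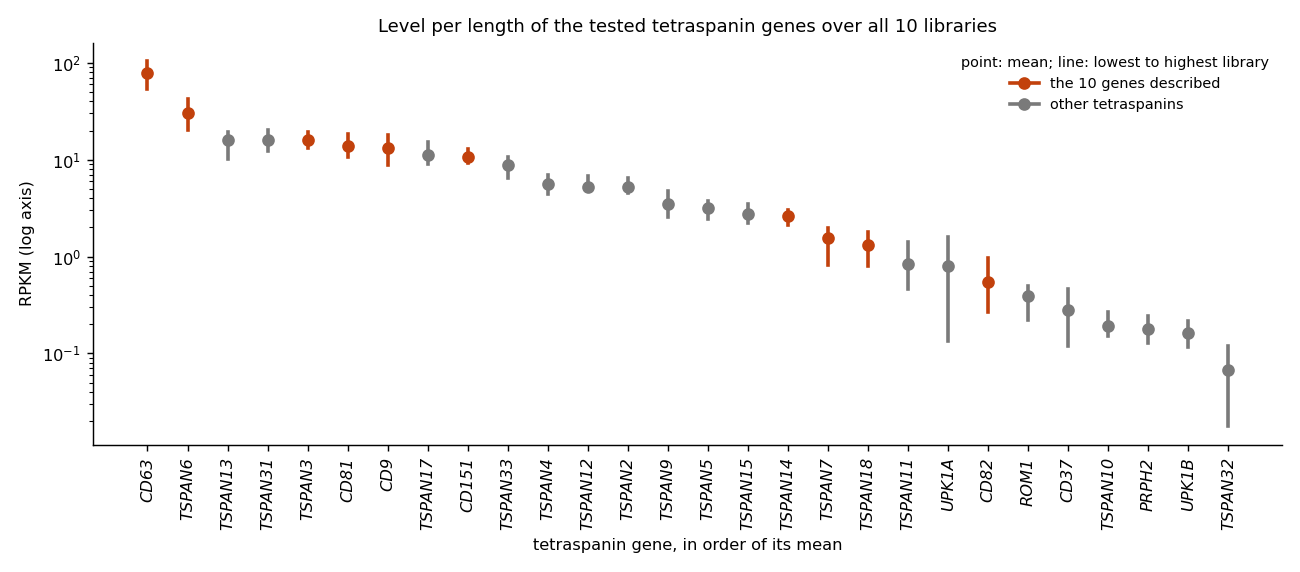
Level per length (RPKM, log axis) of the 28 tetraspanin genes that were tested, in order of their mean over the 10 libraries, with lines from the lowest to the highest library. The 10 genes described here are in orange; CD63 and TSPAN6 lead and CD82 is near the low end.

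Among all 33 tetraspanin genes sought, CD9 was the seventh by mean RPKM and CD82 was at rank 22. TSPAN13 at 16.0 RPKM, TSPAN31 at 15.9 RPKM and TSPAN17 at 11.3 RPKM were the other tetraspanins with the highest levels. Of the exonic bases of TSPAN31, 29.7% were shared with genes of the opposite strand, CDK4 and AGAP2. Whether strand was used in counting is not known, so its level is uncertain. Gene length decided part of this order. With the length of the longest transcript in place of all exonic bases, 6 of the 10 members kept their rank among themselves and CD9 was at rank 3 of the family, as it was by the deposited values. Together the 10 genes took 0.0688% to 0.0810% of all counts of a library.

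The question of the sort was whether cells chosen for high CD9 protein also held more CD9 transcript, and what the other tetraspanins did. Fitted over both batches with batch as a term, none of the 10 tetraspanins was called between HHH and general libraries, against 5.83% of all genes. A call meant an adjusted p under 0.05 (edgeR quasi-likelihood test, Benjamini-Hochberg adjustment over 23552 genes). With replicate number as a block, described below, edgeR called 1 of 10, CD9, beside 6.95% of all genes. In the fit with batch as a term, 3 members, CD9, CD151 and CD82, were at an unadjusted p under 0.05, beside 20.9% of all genes. DESeq2 called 1 of 10, CD82, and limma with voom called 0. For DESeq2 and voom the share of all genes called is not given, so these counts have no background beside them. The log2 fold changes of the members had a median of -0.013, beside 0.016 over all genes tested, with 5 above 0 and 5 below. Differences were larger in size within batch 2 than over both batches for CD9, CD63, CD82, TSPAN3, TSPAN6, TSPAN14 and TSPAN18. They were smaller for CD81, CD151 and TSPAN7. With the filter on low counts, no member passed the edgeR test of the difference between batches.

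CD9 was measured at 57.9, 55.8 and 51.7 CPM in the general libraries of batch 2 and at 81.3, 71.2 and 89.3 CPM in the HHH libraries. Every HHH library of batch 2 was above every general library. The level was 1.46-fold higher in HHH (log2 fold change 0.55, SE 0.113, adjusted p = 0.00851 by edgeR). In batch 1 the general libraries stood at 105.1 and 85.6 CPM and the HHH libraries at 99.1 and 79.03 CPM, so that the groups overlapped. The log2 fold change there was -0.098 (SE 0.137, adjusted p = 0.764). The difference between these batch effects was 0.65 on the log2 scale (SE 0.178), which did not pass the test of the difference itself (adjusted p = 0.105). Blocked by replicate number, which rests batch 1 on its 1 pair of the same number, the batch 1 value was 0.21 (adjusted p = 0.662) and the difference 0.33 (adjusted p = 0.475). In each of the 4 pairs of the same number and batch, the HHH library was above the general one, at 99.1 against 85.6 CPM in batch 1. Such agreement was not particular to CD9, since CD82 and CD151 were lower in the HHH library of all 4 pairs. The share of all genes that agreed in every pair was not counted. Over both batches CD9 had a log2 fold change of 0.29 (SE 0.122, 95% confidence interval 0.028 to 0.55, adjusted p = 0.195), with 4 of 5 HHH libraries above the general mean of their batch.

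Whether CD9 was called over both batches depended on the replicate number. With the number as a block in each batch, CD9 was higher in HHH by 0.46 on the log2 scale (SE 0.0973, adjusted p = 0.0186 by edgeR). This block leaves out of the comparison the batch 1 libraries without a partner of the same number. They were general replicate 1, with CD9 at 105.1 CPM, and HHH replicate 3, at 79.03 CPM, the highest and the lowest level in batch 1. CD9 was the only member called in that fit, in which 6.95% of all genes were. Without HHH replicate 3 of batch 1, the fit with batch as a term also called CD9 (0.40, adjusted p = 0.0305). Within batch 2 the call was lost without general replicate 3 (0.49, adjusted p = 0.0615).

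CD81, which shares many partners with CD9 and forms part of the B cell co-receptor, was measured at 129.0 and 129.0 CPM in general and 137.0 and 145.7 CPM in HHH libraries of batch 1. In batch 2 it was at 92.7, 100.8 and 86.1 CPM in general and 103.9, 100.6 and 88.5 CPM in HHH libraries. HHH stood above general without overlap in batch 1 only, and its change over both batches was 0.093 on the log2 scale (SE 0.0715, adjusted p = 0.487, interval -0.059 to 0.25). The number of CD9 counts per CD81 count, chosen after its values were seen and so given with no test, was 0.554 to 0.624 in general and 0.708 to 1.01 in HHH libraries of batch 2. In batch 1 it was 0.663 and 0.815 in general and 0.543 and 0.723 in HHH libraries.

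**Figure D2:**
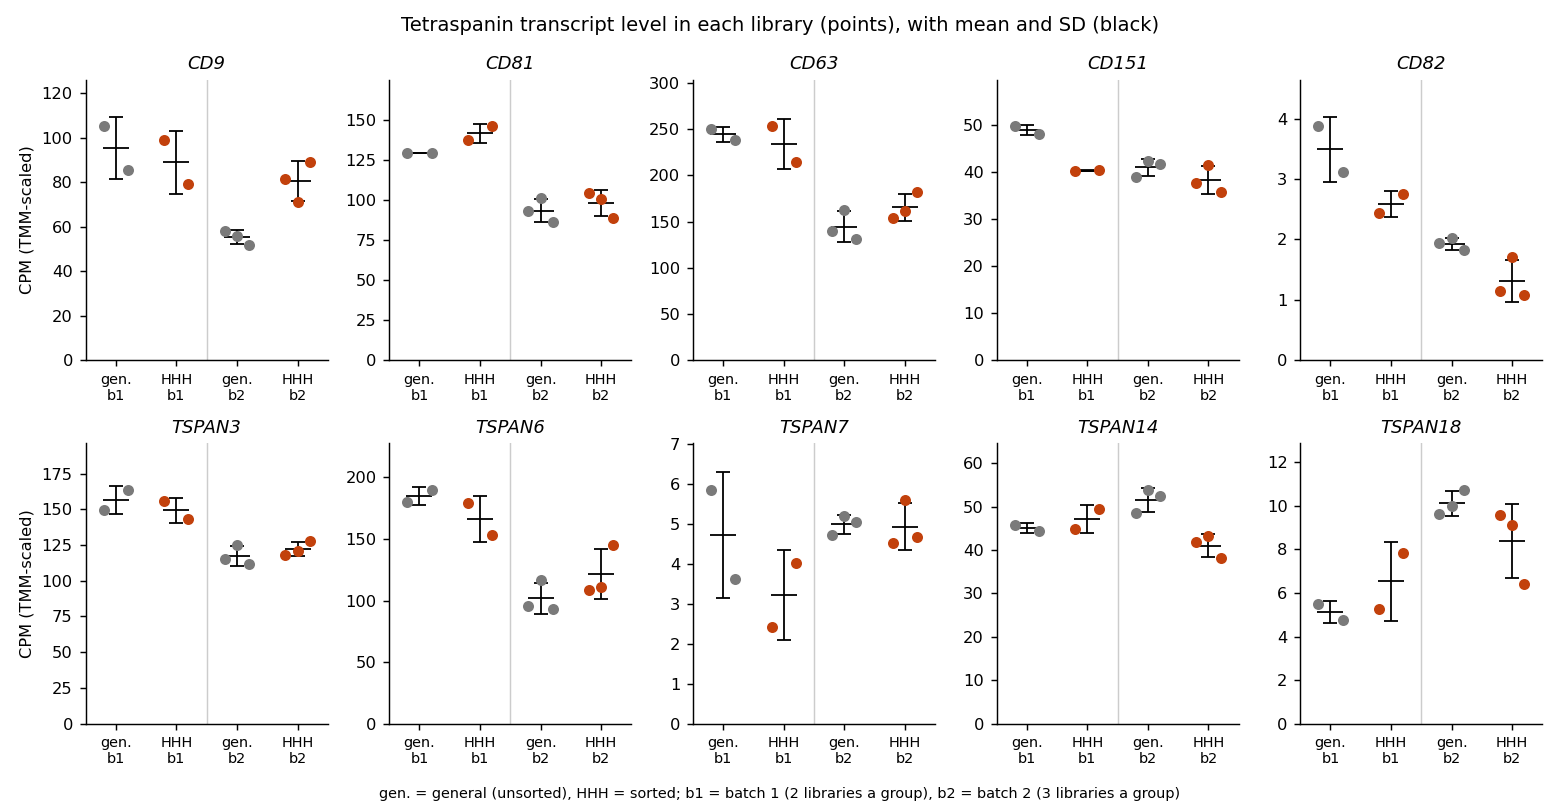
CPM of each tetraspanin in each library (points), with the mean and SD of each group in each batch in black; general libraries are grey, HHH libraries orange, with batch 1 left of the grey line and batch 2 right. CD9 of HHH lies above general in batch 2 and overlaps it in batch 1, and CD82 of HHH lies below general in both.

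CD82, known as a suppressor of metastasis that binds integrins and CD9, had the lowest mean level of the members. It was the only member whose HHH libraries lay below the general libraries in both batches. Of all genes, 21% lay below in batch 1 and 18.2% in batch 2, and the share below in both was not counted. CD82 was at 3.87 and 3.12 CPM in general and 2.44 and 2.75 CPM in HHH libraries of batch 1. In batch 2 it was at 1.94, 2.02 and 1.82 CPM in general and 1.15, 1.71 and 1.08 CPM in HHH libraries. These rest on 61 to 253 counts a library. Over both batches the log2 fold change was -0.50 (SE 0.144, interval -0.81 to -0.19), with an adjusted p of 0.0575 by edgeR that missed the threshold. DESeq2 gave an adjusted p of 0.0223 for CD82. Without HHH replicate 2 of batch 2, HHH replicate 3 of batch 1 or general replicate 2 of batch 1, edgeR called it too, with an adjusted p of 0.0331 at the lowest, and over all libraries left out in turn the adjusted p ran to 0.149. Within batch 2 the replicate block moved its log2 fold change from -0.55 (adjusted p = 0.0819) to -0.57 (adjusted p = 0.0346).

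TSPAN14, a member of the subgroup that carries the protease ADAM10 to the cell surface, was lower in HHH libraries of batch 2. It was at 48.6, 53.9 and 52.4 CPM in general and 41.9, 43.2 and 38.1 CPM in HHH libraries. The HHH libraries were all below the general libraries there, by -0.33 on the log2 scale (SE 0.0826, adjusted p = 0.0238 by edgeR). In batch 1 the general libraries, at 45.9 and 44.4 CPM, overlapped the HHH libraries at 44.9 and 49.4 CPM, and the change was 0.062 on the log2 scale (SE 0.101, adjusted p = 0.806). The batch effects differed by -0.39 (SE 0.131, adjusted p = 0.149), and over both batches the log2 fold change was -0.17 (adjusted p = 0.253). Its call within batch 2 was lost without HHH replicate 1 (adjusted p = 0.0583), HHH replicate 3 (0.0750), general replicate 2 (0.0689) or general replicate 3 (0.0929) of that batch.

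CD151, the partner of laminin-binding integrins, was at 49.7 and 48.2 CPM in general and 40.2 and 40.4 CPM in HHH libraries of batch 1, so that HHH lay below general. In batch 2 the groups overlapped, at 38.9 to 42.4 CPM in general and 35.7 to 41.6 CPM in HHH libraries. Its log2 fold change was -0.17 over both batches (SE 0.0698, adjusted p = 0.178) and -0.28 within batch 1 (SE 0.0998, adjusted p = 0.166). With the trend on GC content removed from each library, the batch 1 value was -0.41 and was called (adjusted p = 0.0341).

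The endosomal members CD63 and TSPAN6 were not called in either batch. CD63 was at 250.5 and 238.5 CPM in general and 253.2 and 214.8 CPM in HHH libraries of batch 1, and at 130.9 to 162.9 CPM in general and 153.9 to 182.0 CPM in HHH libraries of batch 2. The groups overlapped in both batches, and CD63 changed by 0.092 on the log2 scale (SE 0.0888, adjusted p = 0.592, interval -0.098 to 0.28). TSPAN6 was at 179.8 and 189.8 CPM in general and 179.6 and 153.4 CPM in HHH libraries of batch 1, with HHH just below general. In batch 2 its HHH libraries, at 108.7, 111.2 and 145.2 CPM, overlapped the general libraries at 95.8, 116.5 and 92.7 CPM. The log2 fold change of TSPAN6 was 0.095 over both batches (SE 0.110, adjusted p = 0.664).

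TSPAN3 was at 111.7 to 163.5 CPM in general and 118.0 to 155.6 CPM in HHH libraries, and its log2 change was 0.0088 (SE 0.0689, interval -0.14 to 0.16). This was the narrowest interval among the members. The neuronal tetraspanin TSPAN7, whose loss causes X-linked intellectual disability, was at 3.62 to 5.85 CPM in general and 2.42 to 5.60 CPM in HHH libraries (log2 fold change -0.23, SE 0.167, adjusted p = 0.471), and without general replicate 1 of batch 1 the change was -0.059. TSPAN18, linked to calcium entry in endothelial cells, was at 9.61, 10.01 and 10.7 CPM in general and 9.57, 9.12 and 6.43 CPM in HHH libraries of batch 2. There the HHH libraries lay below the general ones, whereas in batch 1 they were at 5.25 and 7.82 CPM against 5.48 and 4.76 CPM and overlapped them. Its log2 fold change over both batches was -0.034 (SE 0.152, adjusted p = 0.926), and its batch effects differed by -0.62 (SE 0.262, adjusted p = 0.223).

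**Figure D3:**
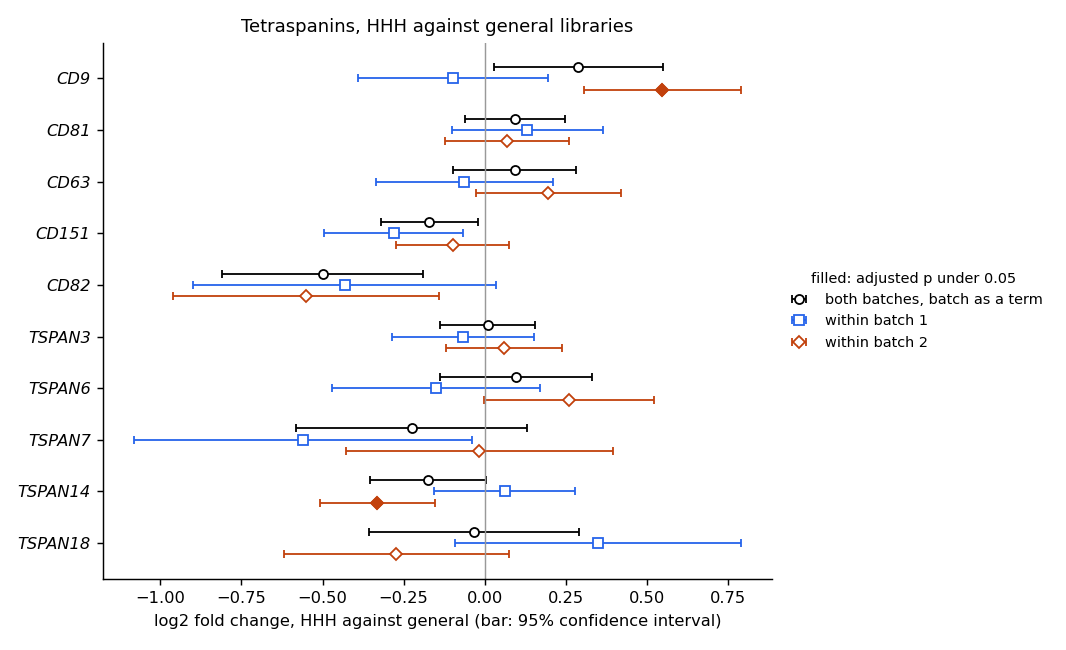
Log2 fold change of each tetraspanin between HHH and general libraries, with 95% confidence intervals, over both batches (black), within batch 1 (blue) and within batch 2 (orange). Filled symbols mark an adjusted p under 0.05, reached by CD9 (0.55) and TSPAN14 (-0.33) within batch 2.

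Counted over the members, 1 was higher and 1 lower within batch 2, where 9.47% of all genes were called, 3.83% higher and 5.65% lower. Within batch 1 edgeR called 0 of 10, beside 2.14% of all genes, with 2 members, CD151 and TSPAN7, at an unadjusted p under 0.05, as were 16.9% of all genes. The test of the difference between batches called 0 of 10, beside 0.777% of all genes, with 3 members at an unadjusted p under 0.05, CD9, TSPAN14 and TSPAN18, as were 18.9% of all genes. For groups that did not overlap, 1 member lay above and 3 lay below in batch 1, where 22.5% of all genes lay above and 21% below. In batch 2 also 1 member lay above and 3 below, where the shares of all genes were 18.1% and 18.2%. These shares are near those of all genes, and so are no result about tetraspanins as a family.

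The batches differed more than the groups did. In batch 2 against batch 1, 6 members were lower and 1 was higher, beside 47.9% of all genes called, 23.9% lower and 24% higher (edgeR, same fit). The 6 lower were CD82, at a log2 difference of -0.92 (SE 0.144), TSPAN6 with -0.66 (SE 0.111), CD63 with -0.63 (SE 0.0897), CD81 with -0.50 (SE 0.0723), CD9 with -0.47 (SE 0.124) and TSPAN3 with -0.35 (SE 0.0698). TSPAN18 was higher by 0.67 (SE 0.158). The adjusted p-values of these 7 ran from 7.32e-05 for CD63 to 0.00594 for CD9. CD151, TSPAN7 and TSPAN14 were not called, with log2 differences of -0.16, 0.33 and -0.0042. Without general replicate 1 of batch 1 TSPAN7 was called (0.55, adjusted p = 0.0101), and without HHH replicate 2 of batch 2 CD151 was (-0.20, adjusted p = 0.0416).

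Scaling moves these batch values together. Without TMM factors, by library size alone, the median of all genes stood 0.34 higher in batch 2 on the log2 scale, beside 0.0036 with them, and of the genes called 11924 were higher and 1668 lower, against 5651 and 5634. CD9 (-0.13, adjusted p = 0.293), CD81 (-0.17, adjusted p = 0.0881) and TSPAN3 (-0.020, adjusted p = 0.810) then lost the call, whereas TSPAN7 (0.67) and TSPAN14 (0.33) gained one. Relative to the median of all genes, CD9 stood at -0.47 under library size and -0.48 under TMM, and CD82 at -0.92 under both. In the general libraries alone, CD9 fell from a mean of 95.3 CPM (SD 13.8, n = 2) in batch 1 to 55.1 CPM (SD 3.15, n = 3) in batch 2, whereas in HHH libraries it was 89.1 CPM (SD 14.2, n = 2) and 80.6 CPM (SD 9.03, n = 3).

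Of the other tetraspanins, 18 of 23 passed the filter. Over both batches 2 were lower in HHH and 0 were higher, beside 3.89% of all genes lower and 1.94% higher. TSPAN11 had a mean of 7.60 CPM (SD 1.72) in general and 4.41 CPM (SD 0.948) in HHH libraries (n = 5 each, log2 fold change -0.80, SE 0.154, adjusted p = 0.00592 by edgeR). CD37, a leukocyte tetraspanin, was at 1.44 CPM (SD 0.396) in general and 0.903 CPM (SD 0.249) in HHH libraries (log2 fold change -0.68, SE 0.179, adjusted p = 0.0384). Of its exonic bases, 10.8% were shared with genes of the opposite strand, so these low counts are uncertain. The call on CD37 held with general replicate 1 of batch 1, HHH replicate 3 of batch 1 or general replicate 2 of batch 2 left out, and was lost without any other single library (adjusted p up to 0.118). Within batch 2, TSPAN13 was higher in HHH at 32.7 CPM (SD 2.96) against 23.0 CPM (SD 2.21) in general libraries (n = 3 each, log2 fold change 0.51, SE 0.0934, adjusted p = 0.0043), and TSPAN11 was lower (-0.94, SE 0.191, adjusted p = 0.00787), a call lost without HHH replicate 3 (0.0538). Over both batches TSPAN13 had a log2 fold change of 0.30 (adjusted p = 0.0917), called with the GC trend removed (0.0378), without a filter (0.0174) or without HHH replicate 3 of batch 1 (0.0462), and TSPAN31 of 0.14 (adjusted p = 0.314).

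Surface partners other than integrins gave 1 gene higher and 1 lower out of 13, beside 1.94% and 3.89% of all genes. EPCAM, itself a sort antigen, rose from a mean of 148 CPM (SD 37.2) in general to 196 CPM (SD 42.0) in HHH libraries (log2 fold change 0.41, SE 0.0806, adjusted p = 0.00645 by edgeR). IGSF3 fell by 0.35 on the log2 scale (SE 0.0924, adjusted p = 0.0395), a call lost in 8 of the 10 fits with 1 library left out, those without general replicate 2 or HHH replicate 3 of batch 1 being the exceptions (adjusted p up to 0.108). The close CD9 and CD81 partners IGSF8 (-0.026, SE 0.0634, adjusted p = 0.856) and PTGFRN (0.12, SE 0.0945, adjusted p = 0.488) did not pass the test, nor did CLDN7, which joins EPCAM and CD9 in complexes (0.10, SE 0.0738, adjusted p = 0.446). With both the GC trend removed and the replicate block, CLDN7 was called at 0.29 (adjusted p = 0.0424). TFRC, the transferrin receptor, was higher within batch 2 (0.55, SE 0.134, adjusted p = 0.0206), where EPCAM was too (0.46, SE 0.100, adjusted p = 0.0115). The call on TFRC was lost without HHH replicate 1 or 3 or general replicate 2 or 3 of batch 2 (adjusted p up to 0.121) and when libraries were scaled by size only (0.0573) or the GC trend was removed (0.0519), and that on EPCAM without general replicate 3 (0.0692).

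None of the 10 integrin partners was called over both batches by edgeR, beside 5.83% of all genes. At an unadjusted p under 0.05 there were 4, beside 20.9% of all genes. DESeq2 called 1 and voom called 0, and the shares of all genes are given for edgeR only. ITGB1, the common beta chain of laminin and collagen receptors, changed by 0.19 on the log2 scale (SE 0.0954, adjusted p = 0.265). Within batch 2 it was higher in HHH, at 431 CPM (SD 3.88) against 329 CPM (SD 25.0) in general libraries (n = 3 each, log2 fold change 0.39, SE 0.0892, adjusted p = 0.0152), a call lost without general replicate 3 (0.0901), with scaling by library size only (0.0641) and with the GC trend removed (0.0656). ITGA6, a laminin receptor chain, had -0.22 (SE 0.0752, adjusted p = 0.113), and was called with library size only (-0.25, adjusted p = 0.0484) and with the GC trend removed (-0.23, adjusted p = 0.0469). Of the 2 ADAM partners edgeR, DESeq2 and voom called 0, with 0 at an unadjusted p under 0.05, beside the same shares of all genes. ADAM10 changed by -0.070 on the log2 scale (SE 0.0716, adjusted p = 0.616). For the 6 tetraspanins that bind ADAM10 as proteins, TSPAN14 among them, edgeR called 0 over both batches and DESeq2 called 1. At an unadjusted p under 0.05 by edgeR there were 2, again beside 5.83% and 20.9% of all genes.

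**Figure D4:**
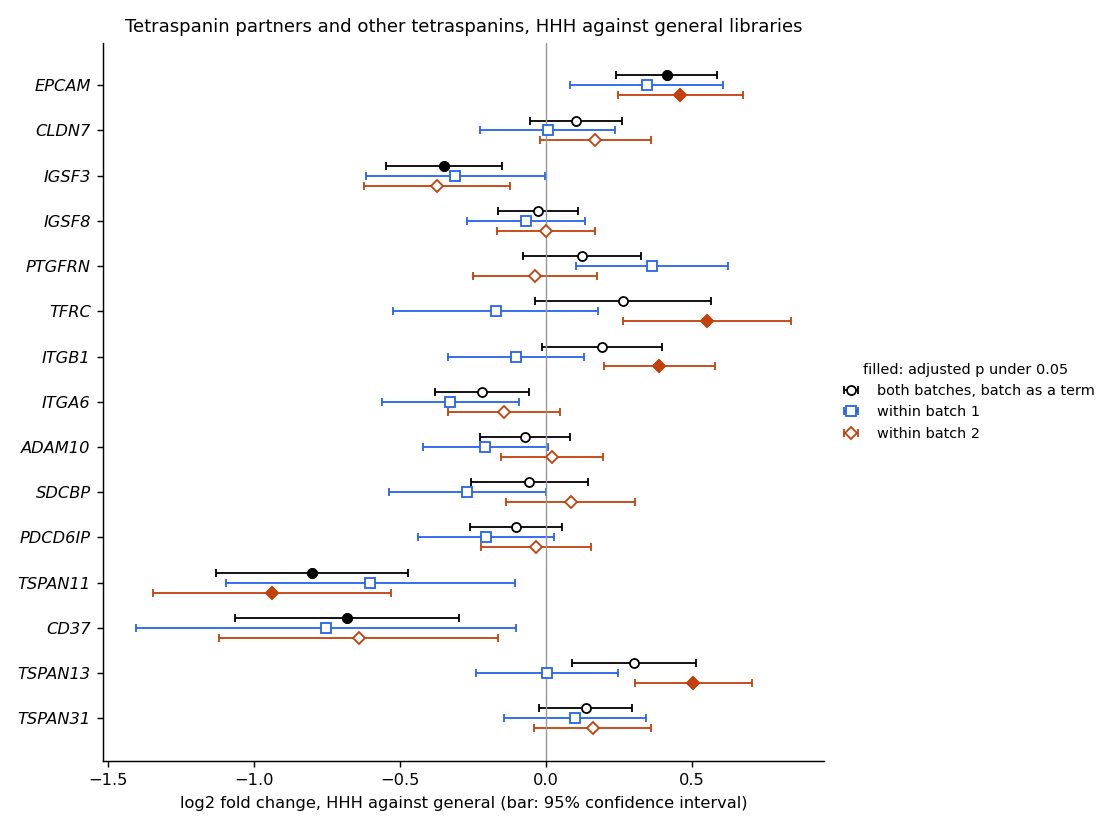
Log2 fold change between HHH and general libraries, with 95% confidence intervals, of partners and of other tetraspanins, over both batches (black), within batch 1 (blue) and within batch 2 (orange); filled symbols mark an adjusted p under 0.05. EPCAM (0.41) is higher and TSPAN11 (-0.80) is lower over both batches.

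Genes of vesicle and endosome formation gave 0 of 18 called over both batches by edgeR, beside 5.83% of all genes. At an unadjusted p under 0.05 there were 3, beside 20.9% of all genes. DESeq2 called 1 and voom called 0. SDCBP, the syntenin adaptor that binds CD63, changed by -0.056 on the log2 scale (SE 0.0933, adjusted p = 0.777), and PDCD6IP, the ALIX protein of vesicle budding, had -0.10 (SE 0.0740, adjusted p = 0.463). Of the 9 palmitoyl transferases, enzymes of the family that attaches lipid to tetraspanins, 0 were called by any of these tools. By edgeR 0 were at an unadjusted p under 0.05, beside the same shares of all genes. In batch 2 against batch 1, 7 of the 18 vesicle and endosome genes and 4 of the 9 palmitoyl transferases were lower, with 1 and 0 higher. Of all genes, 23.9% were lower and 24% higher.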

How the data were processed

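The authors deposited raw fragment counts per Ensembl gene for 10 bulk TruSeq libraries and, in a second table, values that are treated here as a score, namely TMM-scaled RPKM on a log2 scale whose means per gene were equal between batches. The submitters' processing notes name GRCh37, CASAVA 1.8.2, R 3.2.2 and limma 3.26.9, without saying what each did. The aligner, the counter and whether strand was used are not given in the sources used here. Genes were named and placed by GENCODE 44, which matched 49395 of 55841 identifiers. The unmatched identifiers held 16.3% to 20.3% of the counts of a library in batch 1 and 7.44% to 10.6% in batch 2. Their counts stayed in the library totals, and their part in the differences between batches was not tested.

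Groups, batches and replicate numbers came from the sample titles. Counts were tested with edgeR 4.0.16 in R 4.3.3 by the quasi-likelihood test, with TMM factors, filterByExpr at a minimum count of 10 and batch as a term. A model with an effect for each batch gave the within-batch values and their difference. P-values were adjusted by the Benjamini-Hochberg method over 23552 genes and called under 0.05, with a fold over 1.5 as a second rule. CPM are counts per 1000000 of the TMM-scaled library, and RPKM divide them by the exonic length. Alternatives included DESeq2 1.42.0, limma 3.58.1 with voom, other scalings and filters, removal of a GC trend, the deposited log2 values, each library left out, and a replicate block. Those on the median-centred log2 values, the block within batches, the upper quartile within batches and the order by deposited RPKM were chosen after seeing the data. Scripts were tested on simulated data.

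Same-numbered HHH and general libraries of batch 2 deviated together, with correlations of 0.240, 0.143 and 0.113. The numbers were therefore taken to pair the libraries in both batches. In batch 1 only replicate 2 has a partner, with a correlation of 0.113. With 2 libraries a group, general replicate 1 and HHH replicate 3 must give the same value, so batch 1 cannot show pairing. No pair of replicates agreed within sampling noise (chi-square per degree of freedom 6.31 to 54.8).

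The 10 members and the lists of partners and markers were chosen with earlier results of these data known. All members are named, and of the other tetraspanins and the lists of partners every gene called in HHH against general libraries over both batches or within one, together with EPCAM, ITGB1, ITGA6, IGSF8, PTGFRN, CLDN7, ADAM10, SDCBP, PDCD6IP and the 3 other tetraspanins of highest RPKM. The series text mentions protein kinase C inhibitors, and no sample label here carries that treatment. The study's text names its line WA09 where the labels name HES9.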

Additional observations from a re-analysis of the deposited data

How the results depend on the processing

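Which genes passed depended on the block, the filter and the batch, and the cause was not tested. In HHH against general libraries, 1373 genes passed, 701 of them with a fold over 1.5. Without a batch term there were 168 and 151, at an adjusted p under 0.01 there were 616 and 440, batch 1 alone gave 136 by either rule, batch 2 alone gave 3166 with 1178, and without a filter on low counts 2423 and 1114. The deposited log2 values, centred on each library's median, gave 897, and the replicate block after removal of the GC trend gave 2403. The number of members called, 0, became 1 with the replicate block, with the block and GC trend removed, with DESeq2 and with limma on the deposited log2 values, and 2 without a filter and in batch 2 alone. CD9 was called with the replicate block at 0.46, with block and GC trend removed at 0.46 (adjusted p = 0.0119), without a filter at 0.30 (adjusted p = 0.0210) and in batch 2 alone at 0.54 (adjusted p = 0.00277), and reversed to -0.10 in batch 1 alone (adjusted p = 0.811). Within batch 1, 504 genes passed, against 324 by library size only and 1522 without a filter. Within batch 2, 2231 passed, against 3568 without a filter and 3683 with the replicate block. The difference between batches held 183 genes, 17 with the GC trend removed and 1173 without a filter, where CD9 was among them (0.68, adjusted p = 0.00263). With the longest transcript as length, 6 of 10 ranks were kept. EPCAM stood at 0.40 on the log2 scale but lost its call without a batch term (adjusted p = 0.527), and was at 0.34 in batch 1 alone (0.365). On the deposited log2 values, where the median of all genes was -0.12 beside 0.016, and 50 genes were called higher and 1231 lower beside 458 and 915, EPCAM (0.28, adjusted p = 0.303) and IGSF3 (-0.49, 0.0577) lost it. With each library centred on its median, where 264 were higher and 633 lower, EPCAM was called (0.43, 0.0390) and no member was. Calls were also lost by IGSF3 and CD37 with library size only (0.0630 and 0.0568) and CD37 with the GC trend removed (0.0538).

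The sign of some values that missed the threshold changed. In batch 1 alone these were CD63 (-0.070), TSPAN3 (-0.072), TSPAN6 (-0.16), TSPAN14 (0.056), TSPAN18 (0.35), ITGB1 (-0.11), TSPAN13 (-0.0019) and TFRC (-0.18), and in batch 2 alone PTGFRN (-0.044), ADAM10 (0.013) and SDCBP (0.078). The deposited log2 values turned CD81 (-0.046), CD63 (-0.047), TSPAN3 (-0.13), TSPAN6 (-0.048), PTGFRN (-0.019) and CLDN7 (-0.036), a shift shared with the median of all genes, and none of these turned once each library was centred. TSPAN3 turned with the upper quartile (-0.014), with library size only (-0.029) and at 1 CPM in 5 libraries (-0.001965). Removal of the GC trend turned TSPAN18 (0.023) and IGSF8 (0.034, and 0.11 with the block), within batch 1 CD81 (-0.084), within batch 2 CD151 (0.099), and between batch effects CD81 (0.37) and CD82 (0.062). The replicate block turned SDCBP (0.018) and, within batch 1, CD9 (0.21) and CD63 (0.086), and changed the call of no member other than CD9 over both batches and CD82 within batch 2. Within batch 2, library size only, which moved the median of all genes from 0.0043 to -0.079 and the calls from 901 higher and 1330 lower to 308 and 1378, turned CD81 (-0.010) and TSPAN3 (-0.023), and no filter turned TSPAN7 (0.0062). Between batch levels, TSPAN14 turned with the upper quartile (0.046), without a filter (0.00079), at 1 CPM in 5 libraries (0.0085), with the GC trend removed (0.015) and, with a call, with library size only (0.33), which also turned CD151 (0.17).

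With each library left out in turn, 806 to 2347 genes passed in HHH against general libraries, 119 to 789 within batch 1, 785 to 2842 within batch 2 and 21 to 222 in the difference between batches. The lowest of these counts came without HHH replicate 2 of batch 2, general replicate 1 of batch 1, general replicate 3 of batch 2 and general replicate 1 of batch 1. Members called ran from 0 to 2, and CD9 from 0.21 to 0.40, with an adjusted p up to 0.406. Ranges that crossed 0 were -0.022 to 0.043 for TSPAN3, -0.0084 to 0.17 for TSPAN6, -0.18 to 0.086 for TSPAN18 and -0.11 to 0.030 for SDCBP. Within batch 1 they were -0.27 to 0.059 for CD9, -0.19 to 0.053 for CD63, -0.13 to 0.0012 for TSPAN3 and -0.0070 to 0.13 for TSPAN14, and within batch 2 -0.12 to 0.043 for TSPAN7. CD82 ran from -0.35 to 0.030 in the difference between batches and TSPAN14 from -0.063 to 0.064 between batch levels. With 2 libraries a group, batch 1 gave the wider intervals.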

Other observations

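Some of the other tetraspanins were low in these libraries. The 5 that did not pass the filter on low counts were TSPAN1, TSPAN8, TSPAN16, TSPAN19 and CD53, with means of 0.0280 CPM for TSPAN8 to 0.159 CPM for TSPAN19 over the 10 libraries. The photoreceptor tetraspanins ROM1 and PRPH2, at 0.389 and 0.179 RPKM, and the urothelial UPK1B, at 0.161 RPKM, passed the filter. Exonic bases shared with genes of the opposite strand were 30.1% for ROM1 and 19.9% for UPK1A, so their counts are uncertain. UPK1A ran from 0.134 to 1.60 RPKM and was 1 of 5 other tetraspanins higher in batch 2 than in batch 1, beside TSPAN2, TSPAN5, TSPAN32 and CD37. Another 6 were lower in batch 2, namely TSPAN4, TSPAN9, TSPAN13, TSPAN17, TSPAN31 and TSPAN33, beside 23.9% of all genes lower and 24% higher.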
